A study of Mus musculus with 8 samples.

Results

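DNA repair and damage checkpoint genes were examined as a group of 47 genes, chosen by name and matched by symbol to the 21887 protein-coding RefSeq genes of the mouse assembly GRCm38.p6 (mm10), where all 47 were found. They comprise 4 genes of mismatch repair, 12 of homologous recombination, 5 of checkpoint signalling, 5 of the Fanconi anaemia pathway, 5 of end joining, 7 of base excision and single-strand break repair and 9 of nucleotide excision repair. Chromatin carrying H3K36me3, histone H3 trimethylated at lysine 36, had been immunoprecipitated and sequenced from mouse embryonic stem cells with a doxycycline-inducible Setd2 knockdown. All cells grew without feeders as spheres in serum-free 2i medium, which holds 1 µM PD0325901 (a MEK inhibitor), 3 µM CHIR99021 (a GSK3 inhibitor) and 1000 U/ml LIF. The control group is labelled Dox - with the genotype control, and the knockdown group is labelled Dox + with the genotype Setd2 knockdown after 4 days of doxycycline at 1 µg/ml. The 8 libraries form 4 groups of 2, ChIP and input in each condition. No control library received doxycycline, so the drug and the knockdown cannot be told apart. File names in the labels call the lists shCont and shSetD2, while the growth protocol gives all samples the inducible Setd2 knockdown. The labels thus leave unsaid whether the control is the same line without doxycycline or another line, and how many clones were used.

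Setd2 is the enzyme that places most H3K36me3 in mammalian cells. It travels with elongating RNA polymerase II, so that the mark is laid over the bodies of transcribed genes and is sparse at their starts. The repair pathways divide the work by lesion: mismatch repair corrects copying errors, homologous recombination and end joining mend double-strand breaks, the Fanconi anaemia pathway opens crosslinks, base excision repair replaces damaged bases and nucleotide excision repair cuts out bulky lesions. Checkpoint kinases signal the damage and hold the cell cycle. H3K36me3 is itself known as a platform for repair proteins, but the values here describe the chromatin of the repair genes and measure neither their transcripts nor repair.

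Each condition is represented by 1 peak list, called by the authors on merged replicates against merged inputs. There is hence no replicate spread and no test between conditions, and binomial 95% intervals cover counting error only. Merged ChIP libraries kept 36244210 tags (aligned reads) in control and 29416169 in knockdown after removal of duplicates, and the inputs 35134297 and 33403964. The lower knockdown depth moves with every loss described here, and its part in them was not tested. A lost peak can mean that fewer cells kept the mark or that each cell kept less of it, which cannot be told apart in bulk chromatin. A gene is called marked when the midpoint of at least 1 peak lies between its start and end, and its covered share is the percent of its length under peaks. The cells' label was checked on the chromatin of marker genes: 8 of 8 pluripotency markers had a control peak, against 41.2% of all protein-coding genes. A control-covered base pair was found in 0 of 9 lineage markers and 0 of 5 fibroblast (feeder) markers. Of all protein-coding genes 55.2% also had none. Setd2 itself was covered over 40.1% in control and over 0% in knockdown.

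Nearly the whole repair group carried the mark in control cells. A control peak marked 44 of the 47 genes, against 41.2% of all protein-coding genes, a background that includes genes silent in these cells. Of the 47, 28 were covered over at least 50% of their length, against 17.0% of all protein-coding genes, and the median covered share was 60.8%. After knockdown 7 of the 47 had a peak, against 4.95% of all protein-coding genes. Of the 44 marked genes 6 kept a peak (13.6%, 5.17 to 27.4), and among all marked protein-coding genes 10.6% did. The repair genes' kept share therefore lay near the background. Covered sequence summed over the 47 genes went from 893771 bp to 24775 bp, 36.1 times less, and the same ratio over all protein-coding genes was 36.1. This size depends on which control peaks are counted. With only as many top-scoring control peaks as the knockdown list has, the ratio was 8.42, 18 of the 47 genes were marked in control and the median covered share was 0%. That cut changes both the number and the kind of peaks, since long peaks can have low scores.

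**Figure D1:**
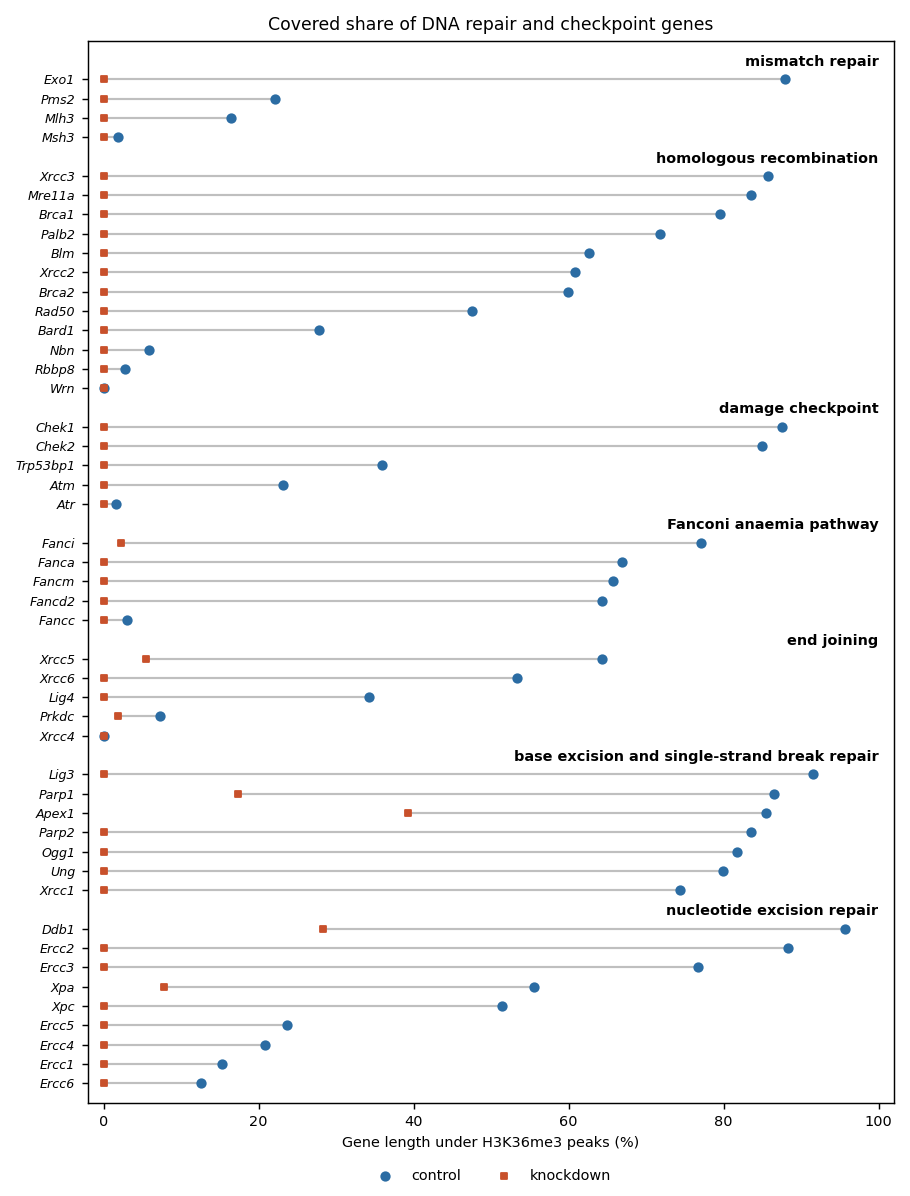
Percent of gene length under H3K36me3 peaks in control (circles) and knockdown (squares) for the 47 repair and checkpoint genes, by pathway, 1 merged peak list per condition. Apex1, at 39.3%, and Ddb1, at 28.4%, are the squares farthest from 0, and 40 squares sit at 0.

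No member of the mismatch repair set kept a covered base pair, and 5.17% of all protein-coding genes had one in knockdown, so 0 of 4 lay near the background. Exo1 (chr1:175880768-175911396), the exonuclease that removes the strand holding the mismatch, was covered over 87.9% of its length by 4 control peaks. Pms2, a subunit of the endonuclease that nicks that strand, was covered over 22.2%, and Mlh3, its relative best known from meiotic crossing over, over 16.4%. Msh3, which recognises small loops left by slipped copying, had 2752 bp under 2 peaks in a gene of 143 kb, a share of 1.92%. All 4 were marked in control, against 41.2% of all protein-coding genes. Exo1 alone passed 50%, against 17.0% of all protein-coding genes.

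Homologous recombination had the most genes and likewise no knockdown peak, near the 10.6% of all marked protein-coding genes that kept one. Of its 12 genes 11 were marked in control and 7 were covered over at least 50%, against 41.2% and 17.0% of all protein-coding genes. Xrcc3, which acts in strand exchange, had the highest share at 85.7%, under a single peak that it shares with the overlapping gene Klc1. Xrcc2, which acts in the same step, had 60.8%. Brca1 (chr11:101488761-101551955), the ubiquitin ligase subunit that promotes resection and recombination, was covered over 79.5%, or 50233 bp. Palb2, which bridges Brca1 and Brca2, had 71.9%, and Brca2, which acts downstream of them, had 28706 bp of its 47.9 kb under peaks. Bard1, the obligate partner of Brca1, was covered over a smaller share, 27.8%.

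The complex that senses and trims broken ends was unevenly covered. Mre11a, its nuclease, had 83.5% of its length under 7 peaks, Rad50, the long coiled-coil ATPase, 47.6% under 11, and Nbn, the subunit that recruits Atm, 5.85% under 1. Rbbp8, which activates the nuclease, had 2.74%. The RecQ helicase genes stood at opposite ends, with Blm at 62.6% and Wrn (chr8:33234372-33385543) at 0%. Wrn is 1 of 2 repair genes without a control-covered base pair, against 55.2% of all protein-coding genes. A share of 0 says that no stretch passed the caller's threshold, not that the mark is absent.

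Among the checkpoint genes the effector kinase genes (18.2 kb and 34.3 kb) were covered over most of their length. The longer apical kinase genes (99.7 kb and 95.6 kb) were not, and marked protein-coding genes over 60 kb had a median share of 8.64%. Chek1 (chr9:36708482-36726658), the kinase that restrains the cell cycle when replication stalls, was covered over 87.5% by a single peak, and Chek2, its counterpart in the response to breaks, over 85.0% by 4. Atm, the kinase that answers double-strand breaks, was covered over 23.1% of its 99.7 kb. In base pairs this order turns for 1 pair, since Atm had 23040 bp under peaks and Chek1 15905 bp. Atr, the kinase that answers stalled forks, had 1529 bp, 1.60% of 95.6 kb. Trp53bp1, which shields broken ends from resection, had 36.0%, of which 10.8% lay inside other coding genes. All 5 were marked in control, against 41.2% of all protein-coding genes. In knockdown 0 were marked, near the 10.6% of all marked protein-coding genes that kept a peak.

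Fanconi anaemia genes were covered broadly with the exception of Fancc. Fanci (chr7:79392312-79450266) and Fancd2, whose proteins form the clamp at the centre of the pathway, had 77.1% and 64.3%. Fanca, a subunit of the ligase complex that ubiquitinates the clamp, had 66.9%, and Fancm, the translocase that anchors that complex to DNA, 65.7%. Fancc, another ligase complex subunit in a gene of 196 kb, had 3.06%, and 51.7% of this covered sequence lay inside the overlapping gene Aopep. Fancd2 was the most fragmented member, touched by 15 peaks. Fanci kept 1 knockdown peak of 1310 bp, 2.26% of its length.

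End joining genes differed within their complexes. Xrcc5 and Xrcc6 encode Ku80 and Ku70, the ring that caps broken ends. Xrcc5 (chr1:72307417-72394953) had 56313 bp under control peaks, 64.3% of its length, and kept 4793 bp in 2 knockdown peaks, a share of 5.48%. Xrcc6 had 53.4% and kept 0%. The Xrcc6 span overlaps Desi1 and begins 28.5 kb before the RefSeq start, and 7629 of its 27888 covered bp lie before that start. Its share is thus not directly comparable with that of Xrcc5. Prkdc (chr16:15637444-15842239), which encodes the kinase that Ku recruits, had 7.35% of 205 kb in control and 1.81% in knockdown. Lig4, the ligase that seals the ends, had 34.3%, and Xrcc4, its scaffold, had 0% of 241 kb in both lists.

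Base excision and single-strand break repair was the most completely covered of the listed sets, an order that the wider list below did not share. All 7 genes were covered over at least 50% in control, against 17.0% of all protein-coding genes. Their shares ran from 74.4% to 91.6%, in a set whose median gene length is 13.4 kb. Lig3 had 91.6% and its scaffold partner Xrcc1 74.4%. Parp1, the sensor that coats single-strand breaks with poly(ADP-ribose), had 86.6%, and its relative Parp2 83.5%. The glycosylase genes Ung and Ogg1, whose enzymes remove uracil and oxidised guanine, had 79.9% and 81.7%. Apex1 (chr14:50924949-50927188), which encodes the endonuclease that cuts at the emptied site, had 85.5% under a peak that reaches into the next gene, Pip4p1. That peak's midpoint lies outside Apex1, so Apex1 is not among the 44 marked genes. In knockdown Apex1 kept 881 bp, 39.3% of this 2.24 kb gene, and Parp1 kept 5561 bp in 3 peaks, 17.3%. The other 5 kept no base pair.

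In nucleotide excision repair all 9 genes were marked in control and 5 passed 50%, against 41.2% and 17.0% of all protein-coding genes. Ddb1 (chr19:10605568-10629828), the adaptor of the ubiquitin ligase that marks ultraviolet lesions, had the highest share of all 47 genes, 95.7%, and kept 6878 bp in 3 knockdown peaks, 28.4%. Xpa (chr4:46175220-46196344), which verifies the lesion, went from 55.6% to 7.81%. The TFIIH helicase genes Ercc2 and Ercc3 had 88.3% and 76.7% in control and 0% in knockdown, and Xpc, the global damage sensor, 51.4% and 0%. The nuclease genes were covered less, with Ercc5 at 23.6%, Ercc4 at 20.9% and its partner Ercc1 at 15.3%. Ercc6, which serves repair in transcribed genes, had 12.5%.

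The knockdown peaks were remnants inside control peaks. All 13 of them lay wholly within a control peak, as did 69.9% (67.4 to 72.3) of the 1386 knockdown peaks in protein-coding genes. They measured 1013 to 3498 bp and lay within 7 of the 193 control peaks that touch the repair genes. In Ddb1 a single control peak of 26974 bp broke into 3 pieces, and 25.5% of it was still covered. In Parp1 the control peak of 28491 bp held 3 pieces, over 19.5% of it, and in Xrcc5 the peak of 35858 bp, the longest of all, held 2 pieces over 13.4%. In Prkdc both knockdown peaks fell in the same control peak of 8882 bp, of which 41.7% stayed covered.

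**Figure D2:**
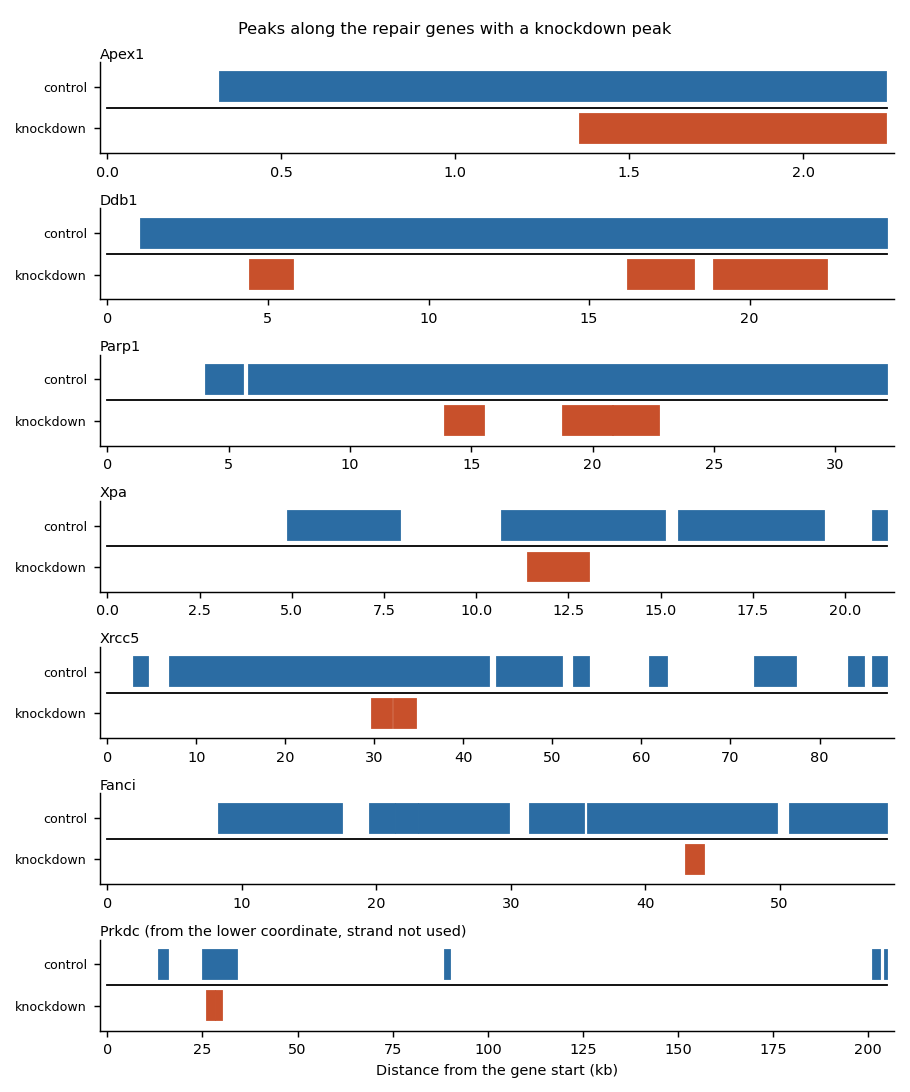
Control (upper) and knockdown (lower) peaks along the 7 repair genes with a knockdown peak, cut at the gene ends, with distance from the gene start in kb. Prkdc is drawn from its lower coordinate. Every knockdown block lies under a control block.

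The control peaks that held a remnant were among the densest. Density is given as tags per kb of peak over the mean of the same library across the effective genome. By this measure the 7 ranked 1 (Ddb1, 4.01), 2 (Parp1, 3.96), 3 (Apex1, 3.94), 4 (Prkdc, 3.85), 7 (Xrcc5, 3.48), 13 (Xpa, 3.31) and 17 (Fanci, 3.20) among 193. The densest control peak without a remnant, at 3.73, lies mostly outside Fanci and touches Polg. Of its 22226 bp 7195 fall in Fanci, and its midpoint does not. Of the 33 peaks with a density of 3 or more, 7 (21.2%, 8.98 to 38.9) were overlapped by a knockdown peak, against 18.5% (17.2 to 19.8) of all such peaks in protein-coding genes. Of the 160 less dense peaks 0 were overlapped (upper bound 2.28%), against 331 of 22087 such peaks in protein-coding genes. Repair genes thus lay close to the background at both densities. The caller's own fold over local background, a value of the authors' table, ran from 6.97 to 8.87 in the 7 and reached 7.24 in the other 186. The remnants themselves had densities of 2.18 to 2.95, each over its own library's mean, and only stretches above the calling limit enter either list, so control and knockdown densities refer to different bases.

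**Figure D3:**
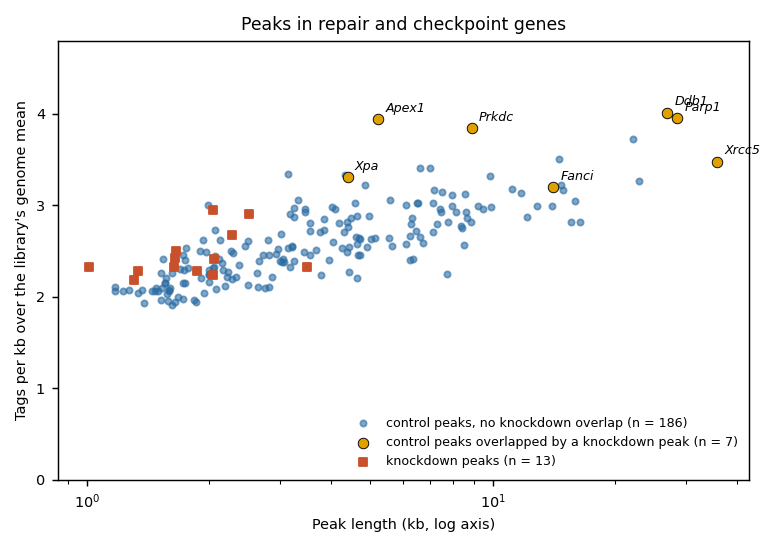
Length (kb, log axis) and tag density over the genome mean of the peaks touching repair genes. The 7 control peaks overlapped by a knockdown peak (large circles) lie between 3.20 and 4.01, and the 13 knockdown peaks (squares) between 2.18 and 2.95.

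Gene length ordered the control coverage. The 9 marked genes under 20 kb had a median covered share of 81.7%, the 21 of 20 to 60 kb 66.9% and the 14 over 60 kb 22.6%. Over all marked protein-coding genes these medians were 59.4%, 35.0% and 8.64%. Across the 47 genes, which share the same libraries, the covered share and the gene length had a Spearman correlation of -0.63, and across all 9016 marked protein-coding genes of -0.61. The genes without a covered base pair, Wrn and Xrcc4, span 151 kb and 241 kb. Length did not set every value: Brca1 (63.2 kb), Blm (80.2 kb) and Xrcc5 (87.5 kb) were covered over more than 60%, while Nbn (35.0 kb), Ercc1 (12.5 kb) and Lig4 (7.66 kb) stayed at 5.85%, 15.3% and 34.3%. Knockdown peaks fell in 1 of 10 genes under 20 kb, 4 of 21 of intermediate length and 2 of 16 over 60 kb, against 2.86%, 6.14% and 9.23% of all protein-coding genes in these classes. That background includes unmarked genes. Of the marked repair genes 0 of 9, 4 of 21 and 2 of 14 kept a peak, against 8.14%, 10.1% and 15.7% of all marked protein-coding genes.

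**Figure D4:**
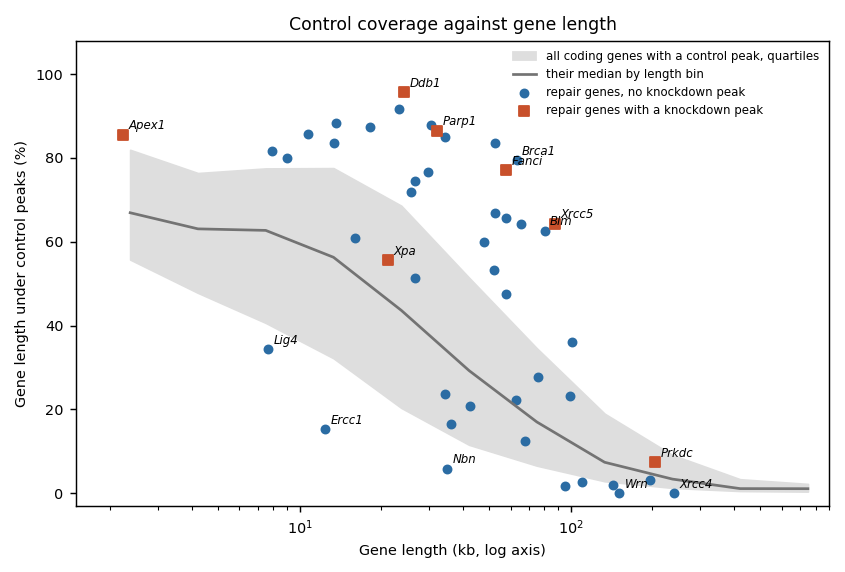
Gene length (kb, log axis) and control-covered share of the 47 repair genes, over the median (line) and quartiles (band) of all protein-coding genes with a control peak. Shares fall with length from Ddb1, at 95.7%, to Wrn and Xrcc4, at 0%.

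Neighbouring genes contributed to some of these shares. Of the 47 genes 14 overlap another protein-coding gene, and 16 have a control peak that also touches another one. More than 10% of the covered sequence lay inside another gene in 8 cases, the largest shares being 51.7% for Fancc, 50.7% for Xrcc3 and 27.4% for Xrcc6. The files do not say which gene's transcription such a peak belongs to. These counts were not set beside those of all protein-coding genes, so they do not single out repair genes.

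Control peaks began downstream of the start, with an exception in Xrcc6. Strand and start were taken from the RefSeq promoter table, which gives 39 windows for 37 of the 47 genes, each from 250 bases before to 50 bases after a start. Of the 39 windows 0 held a base pair of a control or knockdown peak. A control-covered base pair was in 1.71% of the windows of all protein-coding genes and 2.68% of those of genes with a control peak. The 0 of 39 thus lay near the background. In the 36 of these genes with a covered base pair, the first one lay at a median of 2860 bp from the start, from 324 bp in Apex1 to 18831 bp in Mlh3. In Xrcc6 alone a further 7629 covered bp lay within the gene's span but before this start, in 3 peaks that also touch Desi1, and 2.86% of all such genes of 5 kb or longer had covered sequence there. Over all such genes of 5 kb or longer the median was 4933 bp. With each gene's span divided into 10 equal bins, the bin at the 5′ end was covered over 16.1% on average, the next over 41.1%, and the remaining 8 over 56.7% to 67.9%. The mean position of covered sequence, from 0 at the 5′ edge of the span to 1 at the 3′ edge, averaged 0.54 ± 0.14 (SD over 36 genes) and lay past the middle in 29 of the 36. In all oriented genes of 5 kb or longer it averaged 0.62 and lay past the middle in 80.9%. The start lies more than 1000 bp inside the span in 5 genes, by up to 65.5 kb in Fancc. Counted from the start itself, the mean position was 0.52, and 29 of the 36 lay past the middle. In Msh3, at 0.08, Atr, at 0.08, and Pms2, at 0.23, the few peaks sat near the 5′ edge.

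**Figure D5:**
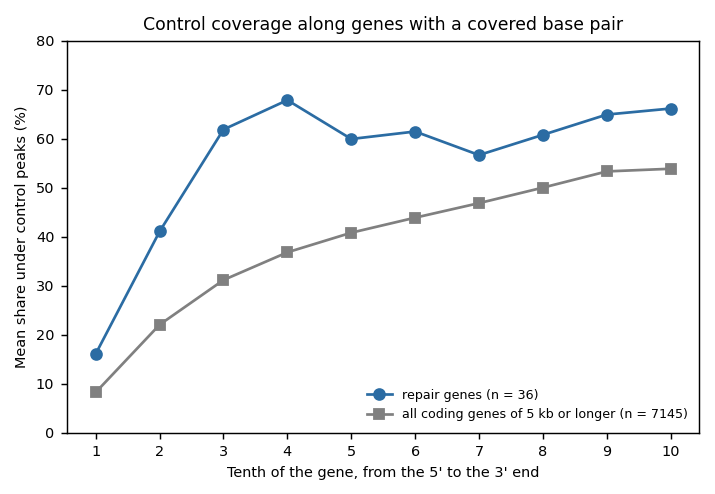
Mean share under control peaks in 10 equal bins from the 5′ to the 3′ edge of the gene span, for 36 repair genes and for 7145 protein-coding genes of 5 kb or longer, all with a covered base pair. Repair genes rise from 16.1% to 61.9% by bin 3 and level off, while the other line climbs to 53.9% at the end.

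Upstream sequence outside all called peaks is shown for 4 genes, chosen because the stretch lies outside other protein-coding genes and, but for 4 bases of Xrcc5, outside the gene's own span: Parp1 and Xrcc5, which kept a knockdown peak, and Chek1 and Ercc2, which have none. The Parp1 stretch lies inside the span of the long noncoding RNA gene Gm31986. Each line gives the 250 bases before the RefSeq start in GRCm38.p6, 5′ to 3′ on the gene's strand. Capitals mark the letters of the GC box (GGGCGG) or of the CCAAT box, on either strand.
Parp1 (chr1:180568641-180568890, plus strand): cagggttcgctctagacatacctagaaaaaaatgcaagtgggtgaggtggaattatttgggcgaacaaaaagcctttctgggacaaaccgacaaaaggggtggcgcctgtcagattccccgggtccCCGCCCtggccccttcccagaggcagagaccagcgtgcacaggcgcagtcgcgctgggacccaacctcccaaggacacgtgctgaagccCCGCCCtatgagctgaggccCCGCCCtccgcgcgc
Xrcc5 (chr1:72307171-72307420, plus strand): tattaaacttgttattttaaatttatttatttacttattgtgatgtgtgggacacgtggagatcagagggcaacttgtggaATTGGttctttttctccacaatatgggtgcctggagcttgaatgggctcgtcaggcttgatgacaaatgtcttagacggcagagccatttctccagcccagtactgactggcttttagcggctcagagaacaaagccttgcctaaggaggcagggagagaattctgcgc
Chek1 (chr9:36726659-36726908, minus strand): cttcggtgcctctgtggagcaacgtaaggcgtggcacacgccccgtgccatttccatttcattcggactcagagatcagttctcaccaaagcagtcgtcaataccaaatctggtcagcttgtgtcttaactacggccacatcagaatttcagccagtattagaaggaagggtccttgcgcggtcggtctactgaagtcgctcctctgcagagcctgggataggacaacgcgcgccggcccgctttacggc
Ercc2 (chr7:19381767-19382016, plus strand): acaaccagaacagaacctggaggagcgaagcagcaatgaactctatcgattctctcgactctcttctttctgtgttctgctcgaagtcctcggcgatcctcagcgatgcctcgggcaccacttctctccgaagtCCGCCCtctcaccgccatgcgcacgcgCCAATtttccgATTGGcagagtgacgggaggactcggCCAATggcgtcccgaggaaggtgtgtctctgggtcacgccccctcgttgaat
Parp1 has 3 GC boxes, and the GC-poor Xrcc5 stretch has a single CCAAT box. Ercc2 has 1 GC box and 3 CCAAT boxes, and Chek1 has neither. Over the 39 windows a GC box occurred in 64.1% of the upstream stretches and a CCAAT box in 51.3%, against 42.6% and 35.4% of 21263 stretches of protein-coding genes. The TATA box letters TATAAA were in 2.56% against 11.6%. The other letters searched were those of the ETS site (CCGGAAGT), in 7.69% against 3.79%, the cyclic AMP response element (TGACGTCA), in 2.56% against 1.92%, and the NRF1 site, in 2.56% against 1.07%. A share of 2.56% is a single stretch. The median number of CpG dinucleotides per stretch was 17 against 10. A match is a description of letters, not of a bound factor.

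Letters of the E2F site, the binding sequence of a family of factors that drives S-phase genes, were searched as TTTCCCGC, TTTGGCGC, TTTCGCGC or TTTGCCGC on both strands. They occurred in 5 of the 39 upstream stretches (12.8%), against 2.35% of all. The stretches of 4 genes are shown as 30 bases each, with the matched letters in capitals. Those of Brca2, Chek2 and Xrcc6 lie inside the gene's own span, before the RefSeq start used here.
Bard1 (chr1:71103163-71103192, minus strand): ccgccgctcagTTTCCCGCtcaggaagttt
Brca2 (chr5:150522442-150522471, plus strand): tttaggccacaGCGGGAAAcagacacacac
Chek2 (chr5:110839820-110839849, plus strand): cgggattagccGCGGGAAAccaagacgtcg
Xrcc6 (chr15:82016312-82016341, plus strand): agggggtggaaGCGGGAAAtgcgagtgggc
In Xrcc6 the match ends 38 bases before the start, in the other 3 shown between 144 and 201 bases. Msh3 is the other gene with a match, and its stretch is not shown. Control coverage of the 5 genes ran from 1.92% in Msh3 to 85.0% in Chek2, and 0 of the 5 had a knockdown peak, near the 4.95% of all protein-coding genes.

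Many repair genes begin next to another gene. Among the 37 with a known strand, 15 (40.5%) had the start of an oppositely oriented protein-coding gene within 1000 bp, against 10.3% of 17492 genes with a known strand. Among them were Brca1 beside Nbr1, Atm beside Npat, Palb2 beside Dctn5 and Apex1 beside Osgep.

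In a wider list of 83 other genes of the same pathways, a control peak marked 67 (80.7%), against 41.2% of all protein-coding genes. Coverage of at least 50% was found in 45 (54.2%), against 17.0%, and a knockdown peak in 6 (7.23%), against 4.95%. Of the 67 marked genes 6 kept a peak (8.96%, 3.36 to 18.5), near the 10.6% of all marked protein-coding genes. By pathway the marked genes were 13 of 13 checkpoint, 5 of 5 mismatch repair, 13 of 15 nucleotide excision, 14 of 18 base excision, 15 of 20 recombination, 3 of 4 end joining and 4 of 8 Fanconi anaemia genes. Rif1, which limits resection together with Trp53bp1, had the highest control share, 97.5%, followed by the mismatch recognition gene Msh6 at 96.1% and Cdc25a, a phosphatase that Chek1 restrains, at 93.6%. Knockdown peaks fell in 2 of 20 recombination, 2 of 13 checkpoint, 1 of 18 base excision and 1 of 15 nucleotide excision genes. Mismatch repair, end joining and Fanconi anaemia genes of this list had 0. The highest knockdown shares were those of the ligase gene Lig1 (32.6%), Rpa2 (18.7%), a subunit of the single-strand binding protein, and Cdc25a (11.9%).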

How the data were processed

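The 47 genes and the lists were chosen with earlier results of these data known. The labels' titles gave the groups. They number the replicates without saying whether they are separate cultures. The submitters' processing notes name Bowtie 1.1.2, FastQC 0.11.5 and the build mm10. Replicates were merged and compared with merged inputs in MACS 1.4.2, per the file headers, at a p cutoff of 1e-05 with 1 tag kept per position. The deposited tables give, per peak, a tag count that is not normalized, a score of minus 10 times log10 p, the authors' fold enrichment as a ratio to local background, and the authors' FDR in percent. The deposited BED files repeat those peaks whose FDR is at most 5%.

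From these, covered base pairs, peak midpoints and densities were computed per gene in Python 3.11.15 (pandas 2.3.3, scipy 1.17.1), using gene spans, strand and promoter sequences of RefSeq GRCm38.p6, and the coverage code was tested on simulated intervals. Intervals are exact Clopper-Pearson. No comparison between conditions was tested. The rule for named genes covers all 47, and in the wider list the 3 highest control-covered and the 3 highest knockdown-covered genes. The alternatives were other marking rules, stricter peak sets, longer gene spans and genes without overlap. The motifs, the length and density classes and the head-to-head pairs were added once values were known.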

Additional observations from a re-analysis of the deposited data

How the results depend on the processing

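Of 41 alternative values 31 stayed near those reported, within 1.5 times for counts, inside the binomial interval for the kept share and within 5% for the rest, and 10 moved. Genes with a knockdown peak numbered 3 when at least 10% of the gene had to be covered and 4 when only peaks with a score of 100 or more were used in both lists. That score limit also gave a median control-covered share of 53.8%, a ratio of covered base pairs of 47.3 and a mean position of 0.57. With only as many top-scoring control peaks as the knockdown list has, 18 genes were marked in control, 6 were covered over at least 50%, the median share was 0% and the ratio 8.42. The caller's score is not proportional to density, since the longest control peak, in Xrcc5, has a score of 61.2. With only the 33 genes that overlap no other the ratio was 27.2. Counting positions from the RefSeq start, an alternative chosen after seeing the data, gave a mean position of 0.52 against 0.54. No paired analysis was possible because the peak lists merge the replicates, and no replicate could be left out. The threshold of the caller and the depth of the merged libraries limit what a missing peak says.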

Other observations

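The genes that start head to head with a repair gene mostly had control peaks too. Of the 15 partners 11 were marked in control, against 41.2% of all protein-coding genes, and 13 had at least 1 control-covered base pair, against 44.8%. Their median covered share was 51.3%. Knockdown-covered sequence was found in 0 of the 15, near the 5.17% of all protein-coding genes. Nbr1, an autophagy receptor gene beside Brca1, was covered over 89.2%, and Npat, a histone gene activator beside Atm, over 56.0%, more than the 23.1% of Atm. Osgep, a tRNA modification gene 56 bp from Apex1, had 68.4% in control and 0% in knockdown, while Apex1 kept 39.3%. Tkfc, 86 bp from Ddb1, had 61.9% and 0%, while Ddb1 kept 28.4%. Tmem167, 59 bp from Xrcc4, had 36.0% in control where Xrcc4 had 0%. These pairs were chosen after their values had been seen.

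Mcm4, a replicative helicase gene next to Prkdc, had 93.2% of its length under control peaks and no knockdown peak, whereas Prkdc, at 7.35% in control, kept 1.81%. Purg, next to Wrn, had 0% in both lists, as did Wrn.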
